A study of Mus musculus with 6 samples.

Results

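The 10 genes followed here were the acute phase proteins Saa1, Saa2, Saa3, Hp, Orm1, Orm2, Lcn2 and Ptx3, and the metallothioneins Mt1 and Mt2. They were taken as a list of names and matched to the gene symbols of the deposited table, with every probe kept. Of the 10 genes, 9 had between them 16 of the 23556 probes, and 8 had enough values to be tested among 17023 genes. Saa3 is not analysed here. Hp was measured on 2 arrays only and could not be tested.

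The tissue was the epididymal fat pad (eWAT), a white adipose depot that lies along the epididymis, taken at 10 weeks of age. The 3 db/db mice are homozygous for a mutation of the leptin receptor gene and are described as obese, severely hyperglycaemic and only modestly hyperinsulinaemic, and the 3 db/+ mice are their lean heterozygous controls. Per the file headers all 6 mice received a vehicle, and the genetic background is not given in the labels. Every array set the RNA of 1 mouse, in Cy5, against the same kind of reference in Cy3, a pool of eWAT from lean vehicle-treated mice. A value is therefore the log2 ratio of mouse over pool, so that 0 means the level of the lean pool. The db mutation acts in all cells of the animal, and whole fat pads were used, so that fewer cells of a type and less RNA per cell cannot be told apart.

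Acute phase proteins are secreted when interleukin-6, interleukin-1 and related cytokines reach the liver, where STAT3, C/EBP factors and NF-kappaB switch on their genes. Adipose tissue makes several of them locally, among them haptoglobin, orosomucoid and lipocalin-2. Metallothioneins are small cysteine-rich proteins that hold zinc and copper, and their genes respond to metals through the factor MTF1 and to glucocorticoids.

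The arrays of the db/db mice did not look alike. Over all probes, db/db replicates 2 and 3 correlated at r = 0.85 with each other and at 0.32 and 0.29 with replicate 1, and db/+ replicates 1 and 2 correlated at r = -0.38. The dyes are given in the labels, and the direction of the ratios was kept. The spread of the log2 ratios of an array (SD) lay between 0.235 and 0.279 for lean mice and between 0.526 and 0.680 for db/db mice. Markers of epididymis epithelium were high in db/db replicates 2 and 3 and low in replicate 1, with values given beside Lcn2. At or below 0.05 on the intensity scale, where 31.7% to 37.9% of the Cy5 values of each array lay, 1 step of the deposited 0.01 grid makes up a large part of a value.

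The list did not move as one. Ptx3, a secreted pentraxin of innate immunity, rose 9.17-fold in db/db eWAT, and Mt2 rose 3.45-fold. Mt1, whose gene lies beside Mt2, differed by only 1.32-fold and missed the threshold. Orm1 was lower on all 3 db/db arrays without passing the test, Saa1 and Orm2 were dim and did not pass, Saa2 differed by little, and Lcn2 was very high in 2 db/db mice and low in the other one. Of the 8 tested genes, 2 passed as higher and none as lower by limma at an adjusted p under 0.05. Over all tested genes, 2.95% passed as higher, 3.79% as lower and 6.75% in either direction. At an unadjusted p under 0.05 by limma, 3 of the 8 were higher and 1 lower, against 23.3% of all genes. The median log2 fold change of the 8 genes was 0.20, against 0 over all genes. By probe, 2 of the 15 tested probes of these genes passed (Ptx3 and Mt2), and 5.43% of all probes. By a looser measure, both groups were fully apart in 4 of the 8 genes, 3 higher and 1 lower in db/db, and in 26.1% of all genes measured on every array (11.5% higher and 14.7% lower).

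**Figure D1:**
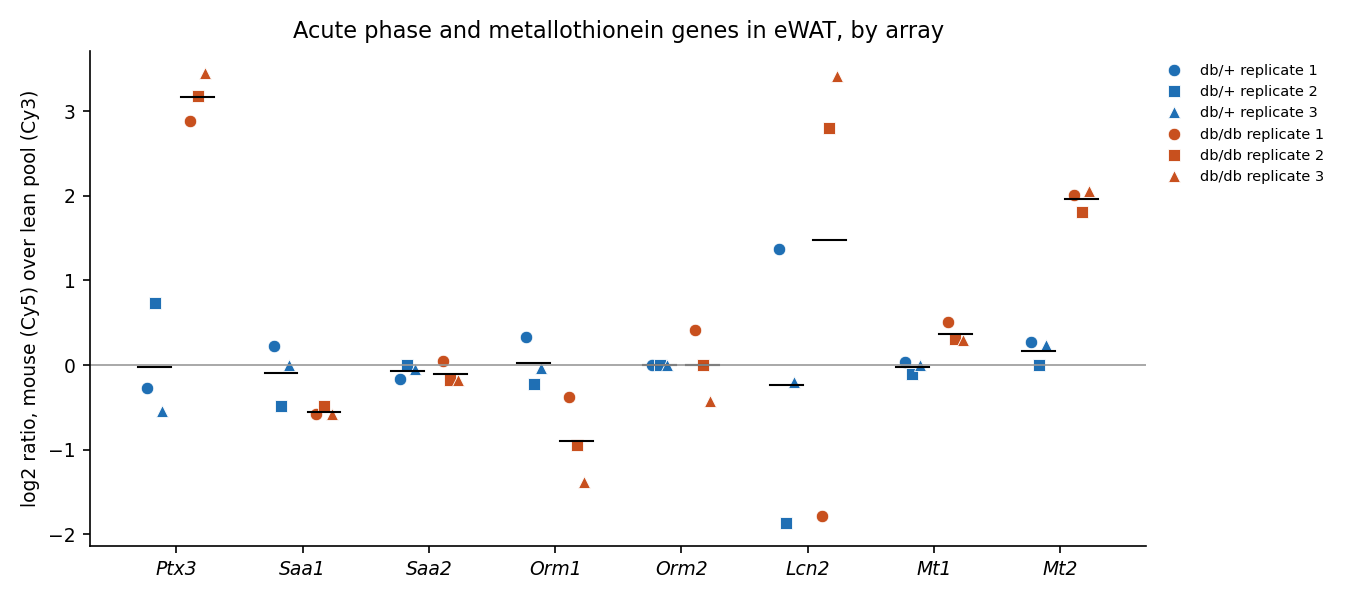
Log2 ratio of each mouse (Cy5) over the lean pool (Cy3) for the 8 tested genes, 1 marker per array, with db/+ in blue, db/db in orange and group means as black bars. The 3 db/db mice stand clear of the 3 db/+ mice for Ptx3 and Mt2, while Lcn2 spreads from -1.78 to 3.42 within db/db.

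Ptx3 encodes pentraxin 3, the long pentraxin that phagocytes, fibroblasts and other tissue cells release on inflammatory stimulation, and that binds microbes and complement components. Its brighter probe had Cy5 intensities of 0.67, 1.28 and 0.57 in lean replicates 1, 2 and 3 and of 6.09, 7.16 and 9.16 in the db/db mice, on the authors' arbitrary scale. Intensities of db/db mice are given here in the order of their mouse numbers, which the labels do not tie to replicate numbers. The lean pool gave between 0.77 and 0.83 on the 3 db/+ arrays. The log2 ratios were -0.27, 0.73 and -0.54 in db/+ replicates 1 to 3 and 2.88, 3.18 and 3.45 in db/db replicates 1 to 3. Every db/db mouse was above every db/+ mouse, and the lowest db/db ratio was well beyond the highest db/+ ratio. The log2 fold change was 3.20 ± 0.39 (SE, n = 3 per group; 95% interval 2.19 to 4.20; limma adjusted p = 0.0231), the rise in rank 23 of the 17023 genes. The lean mice also differed among themselves: on the authors' own per-array p-value, db/+ replicates 2 and 3 differed from the pool, in opposite directions (p = 2.05e-06 and 4.83e-03). Without db/+ replicate 1 or 3 or db/db replicate 2 or 3 the adjusted p was 0.0923, 0.104, 0.0810 and 0.0672 at log2 fold changes between 2.94 and 3.19. Another probe named Ptx3, designed from an expressed sequence tag, was near the bottom of the scale (mean Cy5 0.0433 in db/+ and 0.0400 in db/db) and gave -0.14 ± 0.33, so that the mean of both probes was 1.53 (adjusted p = 0.0468).

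Of the metallothionein pair, Mt2 passed the test and Mt1 did not. Mt2 had Cy5 intensities of 0.29, 0.23 and 0.26 in db/+ replicates 1, 2 and 3, close to the pool at 0.22 to 0.24, and of 1.09, 0.91 and 1.21 in the db/db mice. Its log2 ratios were 0.27, 0.00 and 0.24 in db/+ and 2.01, 1.81 and 2.06 in db/db replicates 1 to 3. The 3 db/db values lay close together and far above all 3 db/+ values. The log2 fold change was 1.79 ± 0.11 (SE, n = 3 per group; 95% interval 1.51 to 2.07; limma adjusted p = 7.07e-03). By fold change Mt2 held rank 172, and by p-value rank 47, among the 17023 genes. Without db/+ replicate 3 the adjusted p was 0.0558 at an estimate of 1.82, and leaving out any other single array kept it under 0.05.

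Mt1, the other widely expressed metallothionein, had Cy5 intensities of 0.39, 0.37 and 0.40 in db/+ and of 0.60, 0.46 and 0.50 in db/db. Its log2 ratios were 0.04, -0.11 and 0.00 in db/+ and 0.51, 0.31 and 0.29 in db/db replicates 1 to 3. The groups did not overlap, but the shift was small: 0.40 ± 0.08 (SE; 95% interval 0.18 to 0.61; limma adjusted p = 0.0608). It passed under 3 alternatives: without db/db replicate 1 (0.33, adjusted p = 0.0355), with array weights (0.33, 5.86e-03) and with dim probes left out (0.40, 0.0479). Taken within each array, the Mt2 ratio minus the Mt1 ratio was 0.24, 0.11 and 0.24 in db/+ and between 1.49 and 1.77 in db/db. The group means of this quantity lay 1.39 apart without overlap of the arrays. A two-sided exact permutation test of 3 arrays against 3 cannot give a p below 0.1, so this difference is given as a description.

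**Figure D2:**
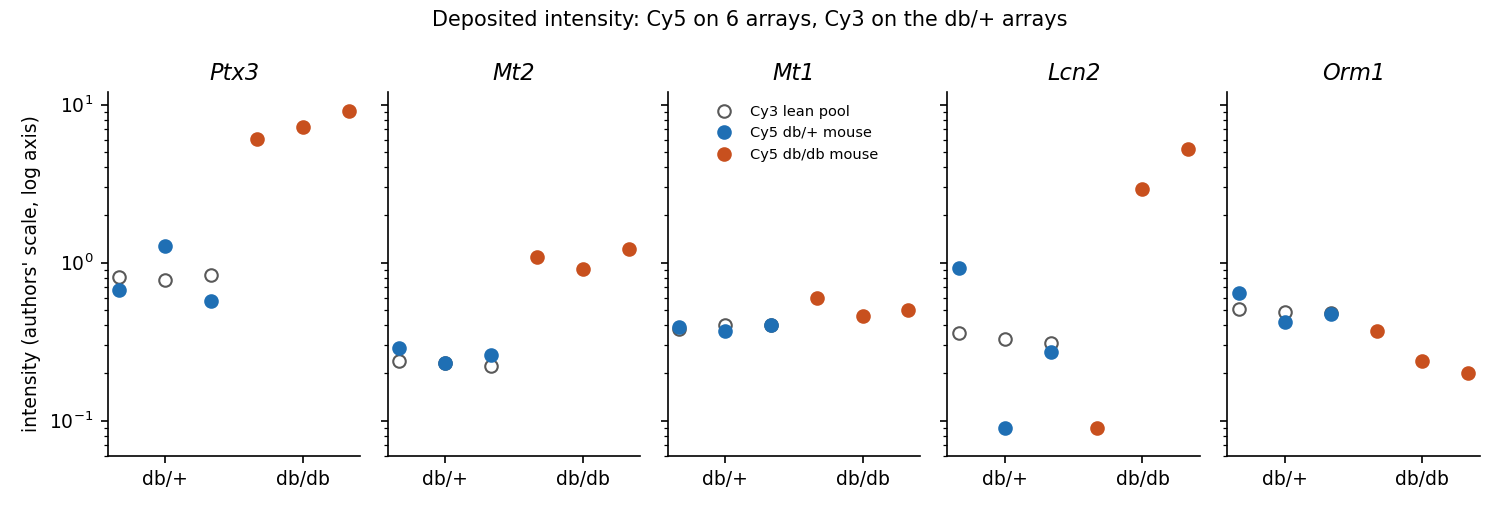
Deposited intensity of each mouse (Cy5, filled) on the 6 arrays and of the lean pool (Cy3, open) on the 3 db/+ arrays, on a log axis, for 5 genes; within db/db the arrays stand in the order of their mouse numbers. The pool is nearly level from array to array (Ptx3 0.77 to 0.83), and all 3 db/db mice lie above it for Ptx3 and Mt2.

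Promoter windows are shown for the 2 genes that rose, the neighbouring gene Mt1 and Lcn2. They were read from RefSeq (build GRCm38.p6) as 250 bases before and 30 after the annotated start, 5′ to 3′ on the gene's own strand. Whether these sequences bear on the expression differences was not tested. Capitals in both Mt windows mark the metal response element core, TGCACNC or TGCGCNC on either strand, and in the other windows TTGCNNAA, a C/EBP-type sequence, or the NF-kappaB consensus.
Mt2, chr8:94172368-94172647, plus strand: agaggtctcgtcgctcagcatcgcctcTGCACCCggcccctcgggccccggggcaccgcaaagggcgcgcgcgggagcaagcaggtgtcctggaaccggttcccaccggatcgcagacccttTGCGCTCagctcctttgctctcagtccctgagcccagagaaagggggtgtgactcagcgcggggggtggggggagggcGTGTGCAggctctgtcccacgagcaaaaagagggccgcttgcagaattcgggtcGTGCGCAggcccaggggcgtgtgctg
Mt1, chr8:94178839-94179118, plus strand: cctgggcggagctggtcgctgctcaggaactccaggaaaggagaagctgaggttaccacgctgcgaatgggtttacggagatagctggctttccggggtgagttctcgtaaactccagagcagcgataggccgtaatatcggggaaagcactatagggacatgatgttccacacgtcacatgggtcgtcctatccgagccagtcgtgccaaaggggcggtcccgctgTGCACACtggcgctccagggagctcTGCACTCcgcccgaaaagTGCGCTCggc
Ptx3, chr3:66219637-66219916, plus strand: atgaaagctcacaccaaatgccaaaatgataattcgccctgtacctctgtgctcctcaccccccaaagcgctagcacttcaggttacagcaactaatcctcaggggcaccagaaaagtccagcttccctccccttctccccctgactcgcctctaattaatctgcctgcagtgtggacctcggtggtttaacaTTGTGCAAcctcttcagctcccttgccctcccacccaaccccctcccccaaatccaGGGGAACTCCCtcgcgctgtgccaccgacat
Lcn2, chr2:32387710-32387989, minus strand: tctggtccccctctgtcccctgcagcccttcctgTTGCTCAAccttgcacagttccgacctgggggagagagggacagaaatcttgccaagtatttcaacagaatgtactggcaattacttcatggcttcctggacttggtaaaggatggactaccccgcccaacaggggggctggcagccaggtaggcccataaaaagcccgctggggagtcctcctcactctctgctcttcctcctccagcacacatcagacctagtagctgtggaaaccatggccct
Mt2 held 4 metal response element cores and Mt1 held 3, and 1.73% of 32851 mouse promoter windows of the same length held 3 or more. Windows with at least 4 made up 0.405%. Counted in bases before the annotated start, the Mt2 cores began at 223, 128, 50 and -4, and the Mt1 cores at 23, -2 and -20. Negative positions lie after that start. Cores outside these windows were not counted, so the counts do not compare the whole promoters of Mt2 and Mt1. Ptx3 held 2 overlapping matches to the NF-kappaB consensus, which 4.22% of windows held at least once, and 1 copy of TTGCNNAA, which was present in 10.4% of windows. Lcn2 also held 1 copy of TTGCNNAA. Windows of 8 of the 10 listed genes were searched, and those of Hp and Orm1 were not analysed here. Among the 8, TTGCNNAA occurred in Saa1, Saa2, Saa3 and Orm2 as well, and in Mt2, where it is not capitalised. TTCNNNGAA, the STAT core, was found in 7.83% of all windows and in none of these 8. These matches are letters in a window around 1 annotated start and were not tested as sites.

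The serum amyloid A genes, whose products are apolipoproteins of the acute phase made above all in liver, did not pass on any probe. Saa1 gave little signal. Its brightest probe had Cy5 intensities of 0.07, 0.05 and 0.09 in db/+ replicates 1, 2 and 3 and 0.04, 0.05 and 0.04 in db/db, a difference of a few steps of the 0.01 grid on which intensities were deposited. Its log2 ratios were 0.22, -0.49 and 0.00 in db/+ and -0.58, -0.49 and -0.58 in db/db replicates 1 to 3, so the groups touched. The log2 fold change was -0.46 ± 0.19 (limma adjusted p = 0.25). Of the other Saa1 probes, annotated to the same target sequence, one gave -0.49 and the other 0.39, in the opposite direction. Saa2 had 3 probes on 1 target sequence as well, with log2 fold changes of -0.03, -0.11 and -0.19 and adjusted p between 0.538 and 0.893 over all probes. On its brightest probe the Cy5 intensity averaged 0.283 in lean and 0.243 in db/db mice, the groups overlapped, and the 95% interval of the log2 fold change was -0.26 to 0.20. The RefSeq table lists each of these gene symbols as an older name of the other, so which of the paralogs a probe was built on rests on the name in the file.

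Haptoglobin (Hp) binds free haemoglobin and is strongly expressed in fat cells. Its only probe was among the brightest of the arrays, in rank 87 of 23556 by mean intensity, and had a value on db/+ replicate 3 and db/db replicate 2 alone. There the Cy5 intensity was 26.1 in the lean mouse, against 33.0 in the pool, and the log2 ratio was -0.34. The only Cy5 value of a db/db mouse was 16.2, and the only db/db log2 ratio -1.19. With 1 mouse a group these values have no replicate check. Missing values were frequent among the very brightest probes: 72 of the 100 brightest lacked a value on at least 1 array. So did 125 of the brightest 1000 and 423 of all 23556 probes, so missing values were not confined to bright probes.

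Orosomucoids, also called alpha-1-acid glycoproteins, are plasma carriers of lipophilic molecules. Orm1 had 3 probes on 1 target sequence, and all pointed downward in db/db. On the brightest, Cy5 was 0.64, 0.42 and 0.47 in db/+ replicates 1, 2 and 3, against 0.48 to 0.51 in the pool, and 0.37, 0.24 and 0.20 in the db/db mice. The log2 ratios were 0.33, -0.22 and -0.03 in db/+ and -0.38, -0.94 and -1.38 in db/db replicates 1 to 3. The groups did not overlap on this probe, and db/db replicate 1 lay nearest to the lean mice. The fold change of -0.92 ± 0.30 did not pass (95% interval -1.71 to -0.13; limma adjusted p = 0.158), while it did without db/db replicate 1 (-1.18, adjusted p = 0.0484) and with array weights (-0.97, adjusted p = 0.01). The remaining Orm1 probes gave -0.64 and -0.70 (adjusted p = 0.276 and 0.172 over all probes). Markers of adipocytes moved beside it: the median of 13 tested markers was -0.71, -1.20 and -1.52 in db/db replicates 1 to 3 and between -0.11 and 0.03 in db/+, their summed Cy5 intensity was 118.3 to 137.3 in db/+ and 45.9 to 52.4 in db/db, and 5 of the 13 passed as lower and 1 as higher. Over all tested genes, 3.79% passed as lower and 2.95% as higher. Only Pnpla2 among the adipocyte markers was at or below 0.05 on every array, and the part of these markers in the Orm1 values was not tested. Orm2 was at the bottom of the scale, at 0.03 to 0.06 on every array. Its log2 ratios were 0.00 in each db/+ mouse and 0.42, 0.00 and -0.42 in db/db replicates 1 to 3, which gave 0.00 ± 0.22.

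**Figure D3:**
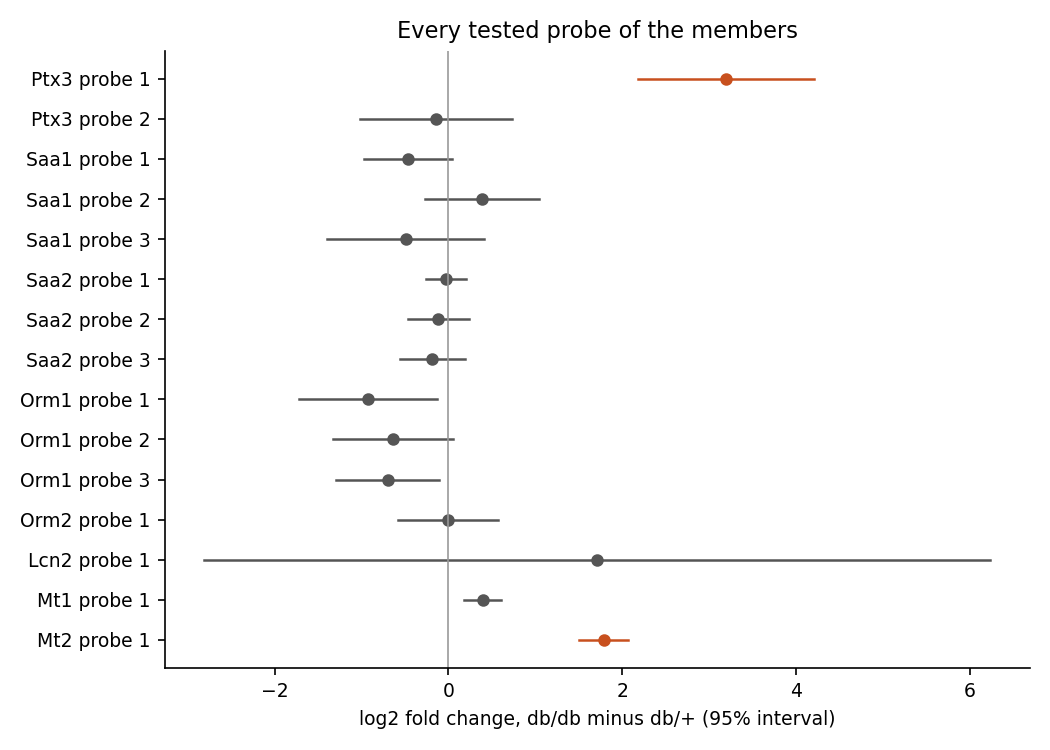
Log2 fold change (db/db minus db/+) with its 95% interval from limma for each of the 15 tested probes, numbered from bright to dim within a gene; orange marks an adjusted p under 0.05 over all probes. The 3 Orm1 probes lie on one side of 0, whereas the Saa1 probes and the Ptx3 probes fall on both sides.

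Lipocalin-2 (Lcn2) withholds iron from bacteria by binding their siderophores, and is made by neutrophils, stressed epithelia and adipocytes. Its Cy5 intensity was 0.93, 0.09 and 0.27 in the lean replicates 1, 2 and 3, with the pool at 0.31 to 0.36, and 0.09, 2.93 and 5.23 in the db/db mice. The log2 ratios were 1.37, -1.87 and -0.20 in db/+ and -1.78, 2.80 and 3.42 in db/db replicates 1 to 3. The 2 high db/db mice exceeded every lean mouse, but the remaining one was nearly as low as the lowest lean mouse. The mean difference of 1.72 ± 1.72 (SE; 95% interval -2.77 to 6.20) was therefore no larger than the spread between mice (limma adjusted p = 0.566). With db/db replicate 1 as the only db/db mouse it was -1.55 (adjusted p = 0.704), and without that mouse 3.35 (adjusted p = 0.126).

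Markers of epididymis epithelium had a median log2 ratio of -1.68, 3.75 and 4.04 in db/db replicates 1 to 3 and 0.67, 0.07 and -1.81 in db/+, and their summed Cy5 intensity ran from 1.68 to 189.1 in db/db and from 1.64 to 13.98 in db/+. Of these 14 markers, 1 passed as higher (Cst8), against 2.95% of all genes. Cst8 had no value on db/+ replicate 3 and db/db replicate 1, the arrays where the median of the list was lowest. The other 13 markers were measured on every array and did not pass. None of the 14 was at or below 0.05 on every array. In db/+ the order of the mice was not that of Lcn2. The mesothelium list holds 5 genes that many epithelia share, and they differed in how far their order matched that of Lcn2. Krt18, a keratin of simple epithelia, had 0.78, -1.34 and 0.10 in db/+ and -2.53, 2.45 and 3.10 in db/db, and the epithelial cadherin gene Cdh1 had 0.99, -2.67 and 0.53, then -4.02, 3.10 and 3.79. Both were highest on the 2 arrays where Lcn2 was highest and lowest on the 2 where Lcn2 was lowest, and neither passed the test. Krt8, the keratin partner of Krt18, had 0.72, -1.33 and 0.28 in db/+ and -2.32, 1.1 and 1.81 in db/db, with the same 2 arrays highest and the same 2 lowest. Krt7 and Krt19 were likewise low in db/db replicate 1 (-1.10 and -1.29) and high in replicates 2 (0.29 and 0.43) and 3 (1.38 and 0.98). In db/+ they did not share the spread of Lcn2: Krt7 had -0.41, -0.04 and -0.19, lowest where Lcn2 was highest, and Krt19 -0.03, -0.32 and 0.05. Within the mesothelium list, Msln, the mesothelial surface protein gene, had -0.42, 0.09 and -0.19 in db/+ and -0.54, -0.91 and -1.19 in db/db. For Msln every db/db mouse was below every db/+ mouse. Of the 12 markers, 4 were apart as lower and 0 as higher, against 14.7% and 11.5% of genes measured on every array. None of the 12 was at or below 0.05 throughout, and their summed Cy5 intensity was 16.7 to 17.9 in db/+ and 8.38 to 46.3 in db/db. This sum includes Cdh1 and Krt18, at a mean Cy5 of 1.21 and 1.23 in db/+ and 8.32 and 5.91 in db/db. None of the 12 passed by limma, and 5 were lower and 0 higher at an unadjusted p under 0.05, against 23.3% of all genes. Fitted beside the epididymis median as a covariate, the Lcn2 difference was -0.19 (limma adjusted p = 0.977), and that of Mt2 was 1.82 (adjusted p = 0.0281). Ptx3 under the same covariate gave 2.95 (adjusted p = 0.0550).

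Of 13 tested neutrophil markers, Lcn2 included, none passed as higher and 1, the dim Prtn3, passed as lower by limma. Over all tested genes, 2.95% passed as higher and 3.79% as lower. At an unadjusted p under 0.05, 0 of the 13 were higher and 2 lower, against 23.3% of all genes. The median of the neutrophil markers was 0 in all 3 db/+ mice and in db/db replicate 1, and -0.26 and -0.16 in db/db replicates 2 and 3. The defining granule genes Ngp, Camp and Elane and the receptor gene Cxcr2 were at or below 0.05 on every array. The granule gene Ltf, also dim, was at 2.68 in db/db replicate 3, where Lcn2 was highest, and at 0 on the other arrays. S100a8, a calcium-binding protein of neutrophils and other myeloid cells, had 0.74, -0.43 and -0.13 in db/+, in the order of Lcn2, and 0.44, 0.36 and 0.17 in db/db, not in that order. S100a9, also on the list, went the other way in db/+, at -0.07, 0.27 and 0.00, highest where Lcn2 was lowest. In db/db it had -0.74, -0.47 and 0.17, in the order of Lcn2. The summed Cy5 intensity of the list was 1.31 to 2.17 in db/+ and 1.13 to 6.61 in db/db, of which Lcn2 itself gave up to 5.23. Hepatocyte markers, looked at because liver is the main source of acute phase proteins, had a median log2 fold change of 0.51, against 0 over all genes, and median log2 ratios of -0.16, -0.37 and 0.13 in db/+ and 0.64, -0.22 and 0.06 in db/db replicates 1 to 3. None of the 16 tested was called in either direction by limma, against 6.75% of all genes. None had an unadjusted p under 0.05 either, against 23.3% of all genes. The summed Cy5 intensity of the 16 was 2.09 to 3.08 in db/+ and 2.15 to 4.03 in db/db. Ttr, Cps1 and Hamp were at or below 0.05 on every array. Alb, Apoh and Fgb, which encode plasma proteins, varied widely between mice of the same group and were high and low together. Alb had -1.25, -1.45 and 0.36 in db/+ and 1.30, -1.40 and 0.13 in db/db. Fgb had -1.91, -2.42 and 0.74, then 1.05, -2.12 and 0.08, and Apoh -1.0, -1.26 and 0.26, then 1.55, -1.0 and 0.62. Brighter markers of the same list did not share this spread. Apoa1 (mean Cy5 1.16 in db/+ and 0.95 in db/db) lay between -0.21 and 0.01, and Apoc3 (0.51 and 0.497) between -0.08 and 0.11. Mean Cy5 was 0.217 and 0.413 for Alb, 0.107 and 0.173 for Fgb, and 0.0967 and 0.217 for Apoh. The part of neutrophil and hepatocyte markers in the values of the listed genes was not tested.

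**Figure D4:**
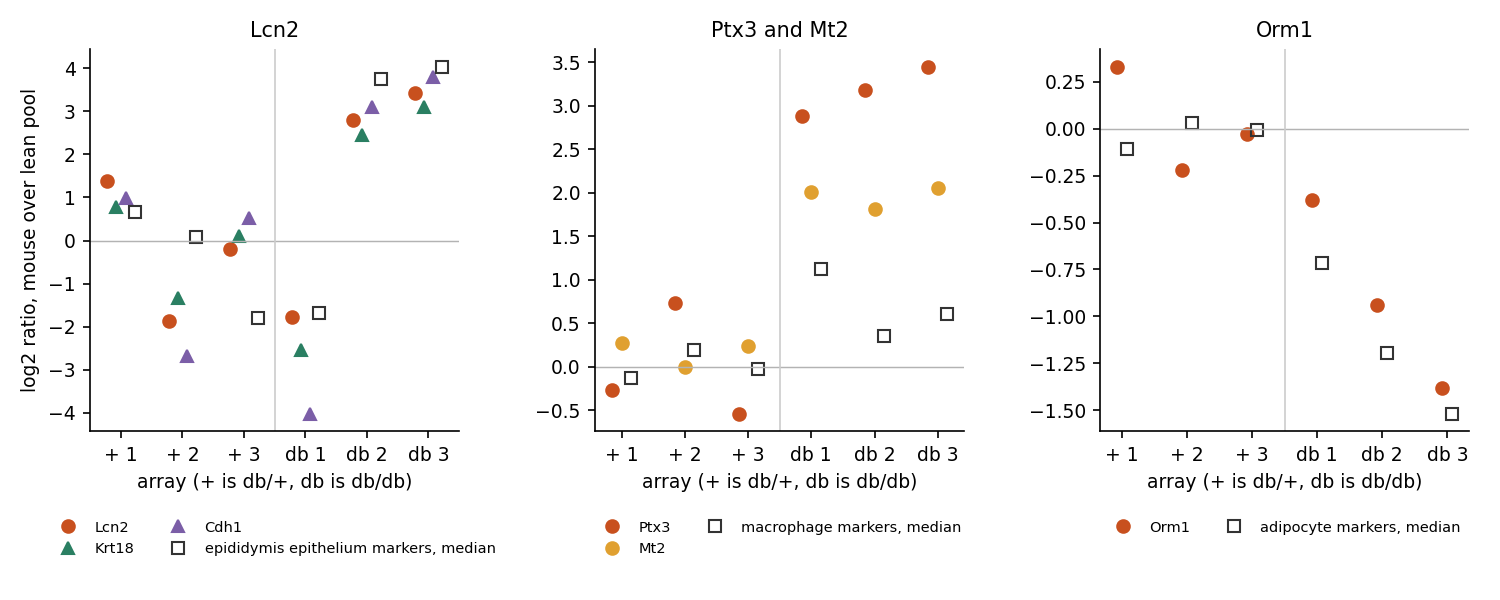
Log2 ratio over the lean pool on each array (+ for db/+, db for db/db, numbered by replicate) of Lcn2 beside Krt18, Cdh1 and the median of epididymis markers, of Ptx3 and Mt2 beside the macrophage marker median, and of Orm1 beside the adipocyte marker median. Lcn2, Krt18 and Cdh1 are low together in db/+ replicate 2 (-1.87, -1.34 and -2.67) and in db/db replicate 1 (-1.78, -2.53 and -4.02).

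Ptx3 and Mt2 were high in all 3 db/db mice, and so were many but not all markers of macrophages. Of 16 tested macrophage markers 5 rose (Mmp12, Gpnmb, Itgax, Cd68 and Msr1) and none fell by limma (9 were higher and 1 lower at an unadjusted p under 0.05). In 10 of the 16 every db/db mouse was above every db/+ mouse, and in 1, Cd163, below. Over all genes, 6.75% were called and 23.3% had an unadjusted p under 0.05 by limma. Of genes measured on every array, 11.5% were apart as higher in db/db and 14.7% as lower. Cd163 had -0.35, -1.02 and -0.67 in db/db replicates 1 to 3, and Csf1r (0.91, -0.23 and 0.04), Mrc1 (0.63, -0.28 and 0.07), Aif1 (0.05, -0.45 and 0.34) and C1qa (0.36, -0.04 and 0.21) were below 0 in db/db replicate 2. The list as a whole had a median log2 ratio of 1.13, 0.36 and 0.61 in db/db replicates 1 to 3 and between -0.13 and 0.19 in db/+. Their summed Cy5 intensity was 54.7 to 68.3 in db/+ and 74.8 to 143.6 in db/db, none was at or below 0.05 throughout, and the part of these markers in the rise of Ptx3 and Mt2 was not tested. Among 8436 genes measured on all arrays with a mean Cy5 intensity above the median gene, the pattern closest to that of Ptx3 was that of Gpnmb, itself on the macrophage list, with a root mean square difference of 0.42 in log2 ratio over 6 arrays, followed by Stap1 (0.46). Closest to Mt2 were Blnk (0.15) and Soat1 (0.17), with Blnk at 2.19, 1.83 and 2.00 in db/db replicates 1 to 3. Closest to Lcn2 were Cdcp1 (0.28) and Kcnk1 (0.39), with Cdcp1 at 1.08, -1.66 and 0.28 in db/+ and -2.00, 3.04 and 3.45 in db/db.

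Of 37 tested cytokines, receptors and transcription factors that drive acute phase genes, none rose and 1 fell by limma, against the 6.75% of all genes called in either direction. At an unadjusted p under 0.05, 5 were higher and 3 lower, against 23.3% of all genes. Their median log2 fold change was -0.0033. The gene that fell was Nr3c1, which encodes the glucocorticoid receptor (-1.07 ± 0.14, SE; limma adjusted p = 0.0250). As the mean of its probes Nr3c1 gave -0.83 (adjusted p = 0.0552). Without db/+ replicate 1, 2 or 3 it gave -1.12, -1.04 and -1.05 (adjusted p = 0.0863, 0.105 and 0.127). Il6 was barely above the bottom of the scale, at a mean Cy5 of 0.0333 in db/+ and 0.0567 in db/db, and its difference of 0.77 ± 0.15 did not pass (adjusted p = 0.0555). Stat3, the transcription factor downstream of interleukin-6, gave -0.08 ± 0.10, and Cebpd, a C/EBP factor of the acute phase, 0.62 ± 0.13 (adjusted p = 0.0591). Several others shifted by similar amounts without passing. The interleukin-6 receptor gene Il6ra gave 0.63 ± 0.13 (adjusted p = 0.0592), and Il6st, the signalling subunit shared by receptors of this family, -0.66 ± 0.16 (adjusted p = 0.0797). The kinase gene Jak2 gave 0.38 ± 0.08 (adjusted p = 0.0692) and Cebpa, another C/EBP factor, -0.76 ± 0.23 (adjusted p = 0.133).

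Among 31 other acute phase genes 1 rose and 3 fell by limma, against 6.75% of all genes called in either direction. Unadjusted p was under 0.05 for 4 higher and 6 lower genes of this list, against 23.3% of all genes. Il1rn, the interleukin-1 receptor antagonist, rose by 4.38 ± 0.36 on the log2 scale (SE), while Rbp4, the retinol carrier, fell by 2.81 ± 0.37, Steap4, a metalloreductase of fat cells, by 1.73 ± 0.30 and Agt, angiotensinogen, by 1.68 ± 0.20 (limma adjusted p between 0.0130 and 0.0433 for these 4 genes). Orm3, the third orosomucoid gene, had -0.34 ± 0.12 and Saa4 -0.14 ± 0.13, and neither passed. Receptors and binding partners of the listed proteins had no member called among 16 by limma (3 lower and 0 higher at an unadjusted p under 0.05). Cd163, the macrophage receptor for the haptoglobin-haemoglobin complex, gave -0.82 ± 0.20 (adjusted p = 0.0895).

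Genes of zinc and copper handling bear on the metallothioneins. Of 26 tested, 3 rose and 1 fell by limma, against 6.75% of all genes called in either direction. Unadjusted p was under 0.05 for 5 higher and 2 lower genes of this list, against 23.3% of all genes. The copper pump Atp7a rose by 0.81 ± 0.12 (SE), and the zinc transporters Slc30a7 and Slc39a7, both of the secretory pathway, by 0.73 ± 0.07 and 0.54 ± 0.06, whereas the copper-zinc superoxide dismutase Sod1 fell by 1.04 ± 0.15 (limma adjusted p between 0.0170 and 0.0317). Mtf1, the metal sensor that activates Mt1 and Mt2, gave -0.04 ± 0.11, and its classical target Slc30a1, a zinc exporter, 0.33 ± 0.17 (adjusted p = 0.868 and 0.333). The remaining metallothionein genes were dim, and neither Mt3 (-0.10 ± 0.10) nor Mt4 (-0.58 ± 0.53) passed. Of 19 genes known to respond to glucocorticoids, 3 rose and Nr3c1 fell by limma, against 6.75% of all genes called in either direction. As many were higher as lower at an unadjusted p under 0.05 (5 and 5), against 23.3% of all genes. Both groups were fully apart in 6 as higher and in 7 as lower, against 11.5% and 14.7% of all genes measured on every array. Cdkn1a rose by 1.73 ± 0.29, Ddit4 by 0.95 ± 0.10 and Fkbp5, a chaperone of the glucocorticoid receptor, by 0.63 ± 0.08 (limma adjusted p between 0.0174 and 0.0406), and the median of the list was -0.05.

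**Figure D5:**
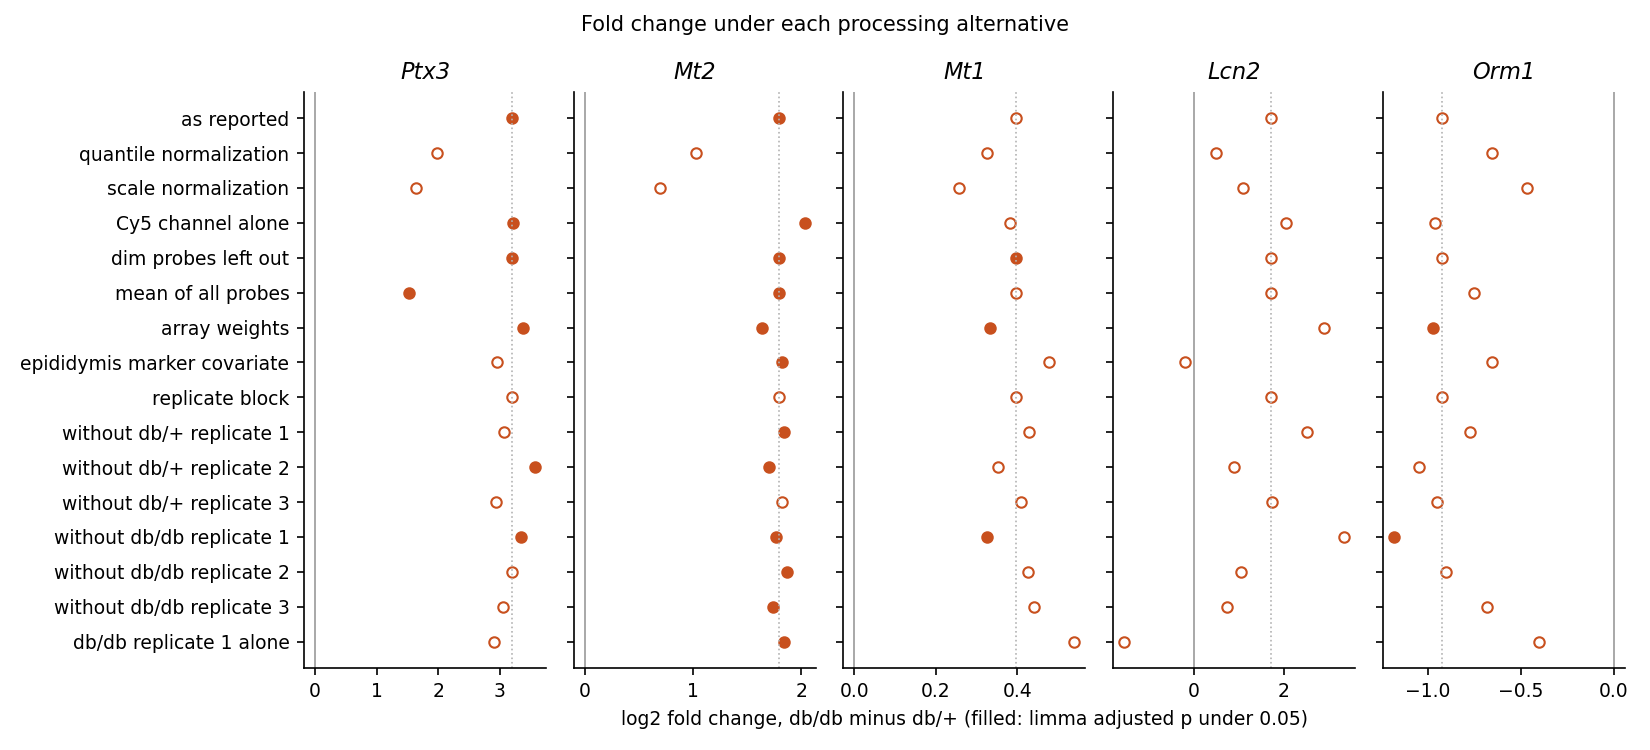
Log2 fold change (db/db minus db/+) of 5 genes as reported and under each processing alternative, with filled points where the limma adjusted p was under 0.05 and a dotted line at the reported value. Ptx3 and Mt2 stay above 0 under every alternative drawn, with the smallest values at 1.53 for Ptx3 (mean of all probes) and 0.70 for Mt2 (scale normalization), while Lcn2 lies between -1.55 and 3.35.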

How the data were processed

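Each of 6 eWAT samples was hybridised to 1 Agilent array with both colours. The RNA went through 2 rounds of amplification, per the labels' protocols. The submitters' processing notes name Agilent Feature Extraction 8.5.1.1. For each channel the deposited table holds an intensity, on an arbitrary scale in steps of 0.01, and for each array the authors' p-value. For background correction, normalization and error model, the sources used here give no method. The series matrix holds the authors' log10 ratios of mouse over pool with a median of 0 on each array. On the lean arrays they matched the ratio of the deposited intensities within 0.0041 on the log2 scale. The table names db/db mice by numbers that the labels do not use. So 6 of its columns, Cy3 and p-values of db/db arrays, were not used, and db/db Cy5 columns stand for the group. The planned ratio of intensities was therefore replaced by the log10 ratios turned to log2, without further normalization.

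Symbols were updated through a RefSeq table, and the probe with the highest mean intensity, with values on all 6 arrays where possible and at least 2 per group, stood for a gene. limma 3.58.1 in R 4.3.3 (lmFit, eBayes) compared db/db with db/+ over 17023 genes, and separately over 23449 probes, with Benjamini-Hochberg adjustment and a threshold of 0.05. The fit was also run on simulated data, with independent noise and, for each gene, the same spread in both groups. That simulation did not copy the differences between the db/db arrays, and no result here rests on it. Tables and figures used Python 3.11.15, numpy 2.4.6, pandas 2.3.3 and matplotlib 3.10.9.

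The members and lists were chosen with earlier results of these data known. Named genes were the members, up to 4 called genes of each pathway list with the largest changes, and the 2 genes closest in pattern to members called or changed by at least 1. Other genes were named for their role, and the epithelial, neutrophil, hepatocyte and non-called macrophage genes, Msln, Il6ra, Il6st, Jak2 and Cebpa after their values were seen. Alternatives were other scalings, Cy5 alone, a filter on dim probes (0.1), probe choice, array weights, an epididymis covariate, a replicate block and single arrays left out. The labels call the samples biological replicates.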

Additional observations from a re-analysis of the deposited data

How the results depend on the processing

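On their main probes, Ptx3 and Mt2 kept their direction under every alternative run. Mt2 passed under 11 of 15 alternatives and Ptx3 under 6 of 16, its dim probe included, with log2 fold changes of 0.70 to 2.03 and -0.14 to 3.58 and adjusted p of 1.1e-03 to 0.314 and 2.78e-03 to 0.862. Neither passed after quantile or scale normalization of the ratios, which give every array the same spread. Quantile normalization left 0 genes called among all genes, 0 of the members higher and 0 genes of the pathway lists (2101 genes at an unadjusted p under 0.05), and scale normalization 11 genes, 9.09% of them higher, 0 and 0 (1841 genes). As reported there were 1149 genes, 43.8% of them higher, 2 members and 12 genes of the lists. Cy5 alone gave 559 genes, array weights 6674 genes, 60 genes of the lists, 3 members higher (Ptx3, Mt2 and Mt1) and 1 lower (Orm1), the filter on dim probes 21 genes of the lists and the same 3 members higher, and the epididymis covariate 765 genes, 60.3% of them higher, and 1 member higher. In db/db replicate 1 alone, an alternative chosen after the data were seen, 1792 genes passed. Leaving out single arrays gave between 54 (without db/+ replicate 3) and 3422 genes (without db/db replicate 1), 0 to 3 members higher, 0 to 1 lower and 0 to 31 genes of the lists. Without db/+ replicate 1, 2 or 3, only 0, 1 and 1 genes of the pathway lists passed, against 12 as reported. Loess, an offset on dim intensities and the comparison of table and series matrix were not run, since they need the Cy3 columns of db/db arrays.

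The replicate block left 0 of all genes called (3086 at an unadjusted p under 0.05), 0 members higher and 0 genes of the lists. The labels give no sign that a number pairs mice. Same-numbered arrays deviated from their group means with correlations of -0.48, -0.41 and -0.02, and arrays with different numbers with correlations of -0.31 to 0.44. With 3 arrays per group, these correlations cannot show whether same-numbered mice shared a batch or were paired.

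Saa2 changed sign, at 0.11 after quantile and 0.096 after scale normalization, 0.065 with the epididymis covariate, 0.125 in db/db replicate 1 alone and from -0.1095 to 0.0079 without single arrays, above 0 without db/+ replicate 2, db/db replicate 2 or db/db replicate 3. Lcn2 did so with the epididymis covariate (-0.19) and in db/db replicate 1 alone (-1.55), Saa1 on another probe (0.39) and Ptx3 on its dim probe (-0.14). The cause was not tested. Dim signals limit what can be said of Saa1 and Orm2, and missing bright values what can be said of Hp.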
